A study of Homo sapiens with 31 samples.

Results

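The genes described here are those that encode the bulk histones, the proteins around which DNA is wound. They were taken by symbol, as every gene named H1, H2AC, H2BC, H3C or H4C followed by a number, which gave 32 of the 17113 genes in the count table. The 32 comprised 8 linker histone genes (H1), 8 H2A genes, 8 H2B genes, 5 H3 genes and 3 H4 genes. By the RefSeq annotation 22 lie on chromosome 6 and 8 on chromosome 1. H1-10, on chromosome 3, shares the naming pattern but is known as a replication-independent linker histone, expressed outside S phase as well, so it is described apart. Histone genes that RefSeq lists under such symbols and that are not in this table were not analysed here.

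Most bulk histone genes are transcribed when DNA is replicated, without introns. Their messenger RNAs usually end in a short stem-loop in place of a poly(A) tail: the stem-loop binding protein SLBP recognises it, and the U7 small nuclear ribonucleoprotein guides the cut behind it. Some of these genes also give longer polyadenylated transcripts, known from cells that have left the cycle. Libraries that do not select for a poly(A) tail, as those here, keep both kinds.

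The series tested whether the part of a transcriptome that comes from cancer can be computed from a mixture. Its unmixed samples were LoVo, LS1034, HT-29 and HCT116, which are established lines from human colorectal carcinomas, and CCD841CoN, a line labelled as normal colon, with 3 libraries each. Its 16 mixtures held RNA of a single cancer line at 0.1, 1, 10 or 50% in CCD841CoN RNA, with 1 library for each line and percentage. All 5 lines were untreated and carried no engineered allele by their labels; each is 1 line, so a difference between CCD841CoN and the cancer lines rests on 1 normal line. The labels do not say that replicates came from separate cultures, so p-values measure the spread between libraries, which may be technical.

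Total counts ran from 9688765 to 56741879 per library. The label of CCD841CoN was set against defining markers: the summed level of 6 epithelial genes was 3179 to 24553 CPM (counts scaled to a common library total) in the cancer line libraries and 239.6 to 315 CPM in CCD841CoN, and that of 6 fibroblast genes was 0.877 to 30.9 CPM in the cancer lines and 24246 to 28347 CPM in CCD841CoN. CCD841CoN thus carried fibroblast markers at a high level and epithelial ones at a low level; the part of this difference in the histone results was not tested. Summed over 20 S phase genes, levels were 1656 to 6794 CPM in the cancer lines and 972 to 1031 CPM in CCD841CoN. In RNA of whole cultures, fewer cells in S phase and less RNA per cell cannot be told apart. The immune and neural markers measured summed to at most 0.483 and 0.446 CPM in any unmixed library.

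The stem-loop is the feature that sets replication-dependent histone RNAs apart, so it is shown for 6 genes whose values are given below. The loops were found in GENCODE 29 transcripts (GRCh38) and are written 5′ to 3′ as DNA, with the stem-loop in capitals.
H2AC6: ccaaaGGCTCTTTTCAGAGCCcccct
H2BC21: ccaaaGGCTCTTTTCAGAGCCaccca
H2BC4: ccaaaGGCTCTTTTAAGAGCCaccca
H2BC5: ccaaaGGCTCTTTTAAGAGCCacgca
H4C8: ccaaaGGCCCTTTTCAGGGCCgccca
H2AC13: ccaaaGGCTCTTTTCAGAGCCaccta
The loop was present in annotated transcripts of 13 members, against 67 of all 58676 genes (0.114%). Many of the other members' models, such as the 642 bases of H1-2, end with the coding sequence, so nothing is drawn from their lack of a match. In H2AC6 the annotated transcript with the loop ran on for 1114 bases behind it and in H2BC21 for 1729 bases. The H2AC6 and H2BC21 models thus hold more than the processed histone RNA. In H4C8 18 bases followed the loop in the shorter of 2 annotated transcripts, of 397 and 1034 bases, which both hold the loop.

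The windows in front of H1-3, H1-4 and H1-5 are shown because these linker histone genes moved most among libraries, and that of H2AC6 because this gene and its neighbour H2BC4 were both far lower in the cancer lines. Each has 250 bases before and 50 after the annotated start (RefSeq, GRCh38.p14), written along the gene's strand. Capitals mark matches, on either strand, to the octamer ATTTGCAT, to the letters CCAAT of the CCAAT box, to TATAAA as found in TATA boxes and to AAACACA, known as the H1 box.
H1-3 (chr6:26234938-26235237, minus strand): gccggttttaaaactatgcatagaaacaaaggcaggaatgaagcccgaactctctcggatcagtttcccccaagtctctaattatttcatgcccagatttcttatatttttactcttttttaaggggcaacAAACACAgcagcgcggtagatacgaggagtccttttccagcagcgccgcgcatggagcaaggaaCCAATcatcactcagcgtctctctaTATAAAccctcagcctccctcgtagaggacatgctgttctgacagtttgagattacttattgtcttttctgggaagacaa
H1-4 (chr6:26156079-26156378, plus strand): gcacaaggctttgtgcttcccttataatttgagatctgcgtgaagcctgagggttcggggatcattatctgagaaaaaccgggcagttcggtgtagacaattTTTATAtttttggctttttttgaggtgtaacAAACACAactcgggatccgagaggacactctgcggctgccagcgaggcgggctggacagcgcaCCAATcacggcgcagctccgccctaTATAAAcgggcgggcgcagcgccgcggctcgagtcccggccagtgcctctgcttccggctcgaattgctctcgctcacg
H1-5 (chr6:27867539-27867838, minus strand): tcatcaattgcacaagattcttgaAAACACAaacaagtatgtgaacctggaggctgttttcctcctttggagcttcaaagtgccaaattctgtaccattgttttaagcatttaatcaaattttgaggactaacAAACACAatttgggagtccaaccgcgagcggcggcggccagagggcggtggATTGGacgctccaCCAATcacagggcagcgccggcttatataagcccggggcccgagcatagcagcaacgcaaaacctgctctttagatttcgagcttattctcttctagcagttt
H2AC6 (chr6:26123922-26124221, plus strand): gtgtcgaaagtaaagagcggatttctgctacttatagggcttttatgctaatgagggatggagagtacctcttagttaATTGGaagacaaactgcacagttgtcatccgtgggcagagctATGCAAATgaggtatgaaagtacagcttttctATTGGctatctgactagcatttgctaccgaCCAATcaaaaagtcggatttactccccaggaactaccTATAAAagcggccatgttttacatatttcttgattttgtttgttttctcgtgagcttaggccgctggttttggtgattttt

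A promoter window was matched for 29 of the 32 members. The octamer, the site of the factor POU2F1, was in the windows of 6 of 8 H2A and 5 of 8 H2B genes and of 0 of 7 H1 genes, against 1.77% of all 35116 windows. It was also in 1 of 4 H3 genes, H3C4, in a window that is the same as that of H2AC7, and in 0 of 2 H4 genes. The H1 box was in 6 of 7 H1 windows, against 5.64% of all windows, and also in 2 of 4 H3, 1 of 8 H2A, 0 of 8 H2B and 0 of 2 H4 genes. CCAAT was shared by most classes: it was in all 8 H2A, all 8 H2B, 6 of 7 H1 and 4 of 4 H3 genes and 0 of 2 H4 genes, against 34.6% of all windows. H2AC6 and H2BC4 are read in opposite directions from a shared stretch: their windows overlap by 255 bases, so the letters printed for H2AC6 serve mostly for H2BC4 as well. The windows of H2AC11 and H2BC11, of H2AC13 and H2BC13 and of H2AC20 and H2BC21 overlap too, so a match can be counted for both genes of a pair. A match is a description of letters, not a bound site.

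Levels differed by orders of magnitude among the members. On the CPM scale 11 members reached a mean of 10 CPM in at least 1 line, 11 peaked at 1 to 10 CPM and 10 stayed below 1 CPM, 5 of them with fewer than 20 counts over the 15 unmixed libraries. All 32 had at least 1 count there. H4C3, which encodes histone H4, was the most abundant in the cancer lines: divided by gene length it averaged 1990.4 CPM per kilobase there and 239 in CCD841CoN. On the same scale, with a RefSeq length of 519 bases, H2AC6 had 43.4 CPM per kilobase in the cancer lines and 218 in CCD841CoN. Its GENCODE transcripts are 1462 to 1654 bases long, and with such a length its values per kilobase would be lower. The annotation used for counting is not given, so how near H2AC6 came to H4C3 in CCD841CoN is not settled.

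By class, the H4 and H3 sums were higher in the cancer lines and the H2A and H2B sums lower. H4 averaged 807 ± 396 CPM in the cancer lines and 104 ± 31.9 in CCD841CoN (SD, n = 12 and n = 3 libraries), and H3 averaged 5.62 ± 3.53 CPM in the cancer lines and 1.40 ± 0.269 in CCD841CoN. H2A averaged 35.9 ± 17.8 CPM in the cancer lines and 119.7 ± 20.4 in CCD841CoN, and H2B averaged 37.0 ± 17.3 CPM in the cancer lines and 104 ± 7.47 in CCD841CoN. In no library did these 4 sums overlap between the cancer lines and CCD841CoN. The sum of H1-1 to H1-6 was 99.8 ± 83.2 CPM in the cancer lines and 37.4 ± 2.73 in CCD841CoN. There the groups overlapped, with 19.9 to 255 CPM in the cancer lines and 34.99 to 40.4 in CCD841CoN. Each class sum is carried by few genes (H4C3 for H4, H2AC6 for H2A, H2BC12 for H2B), so no test was run on sums.

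**Figure D1:**
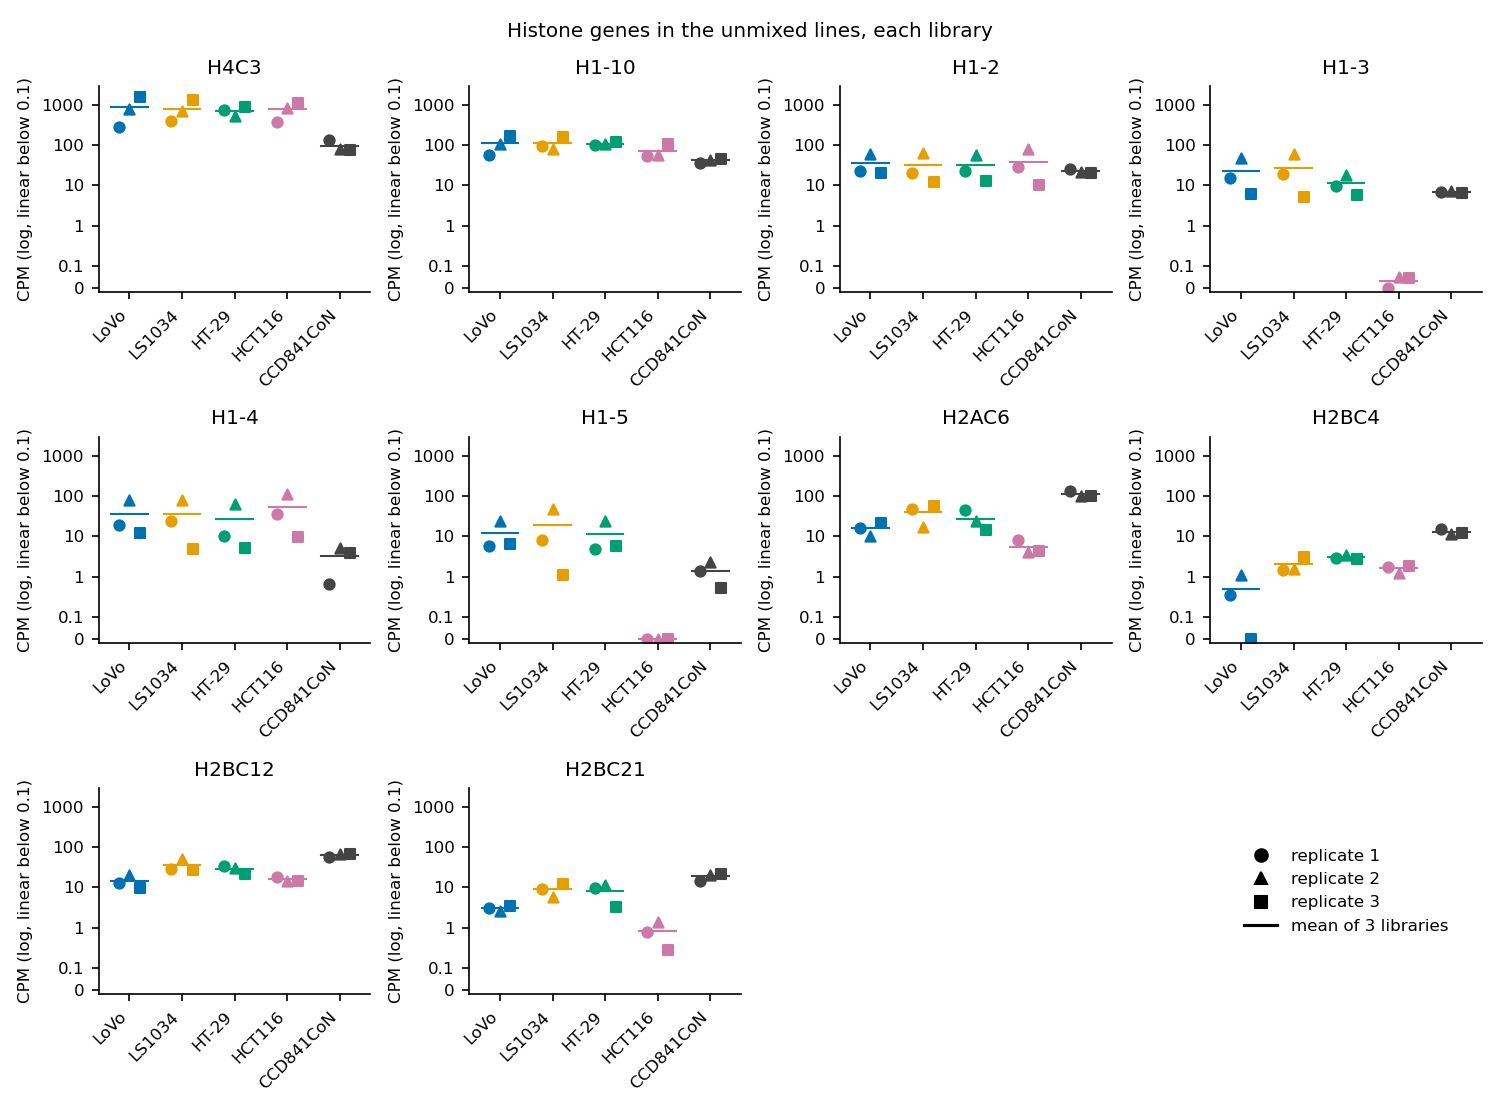
Level of 10 members that reached a mean of 10 CPM in a line, in each of the 15 unmixed libraries. The y axis is CPM, logarithmic above 0.1 and linear below; symbols mark the replicate number and lines the mean of 3 libraries. H4C3 was at 280.3 to 1594 CPM in the cancer lines and at 75.6 to 133 CPM in CCD841CoN, H2AC6 was at 4.17 to 57.3 CPM in the cancer lines and at 101 to 136 CPM in CCD841CoN, and H1-5 had no count in HCT116.

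Against CCD841CoN, 6 members rose and 8 fell in the mean of the cancer lines. Those that rose included H4C3, the linker histone gene H1-4, the H2A genes H2AC20 and H2AC13 and the H3 gene H3C12; those that fell were H2AC6, the H2B genes H2BC4, H2BC5, H2BC12 and H2BC21, the H4 genes H4C8 and H4C11 and the linker histone gene H1-1. A member was called at an adjusted p under 0.05 with a log2 fold change of at least 1 in either direction, by edgeR's quasi-likelihood test with Benjamini-Hochberg adjustment over 14452 genes. The 14 calls were 60.9% of the 23 members that passed the filter on low counts, and 47.1% of all tested genes were called, 24.8% higher and 22.3% lower; 9 members were not tested. The median log2 fold change was 0.18 over the 23 members and 0.22 over all genes. By class, 2 of 7 H1 genes rose and 1 fell, 2 of 4 H2A genes rose and 1 fell, 0 of 7 H2B genes rose and 4 fell, 1 of 2 H3 genes rose, and 1 of 3 H4 genes rose and 2 fell. Counts of 1 member may include reads of near-identical genes, and how such reads were handled is not given in the sources used here.

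H4C3 had 280.3, 819 and 1594 CPM in LoVo, 399.7, 702 and 1319 in LS1034, 743, 537 and 908 in HT-29 and 379, 846 and 1148 in HCT116, against 133, 82.2 and 75.6 in CCD841CoN. All 12 cancer libraries lay above all 3 of CCD841CoN, and the cancer libraries spread widely within each line. Mean levels differed 8.32-fold, and the fitted log2 fold change was 2.76 ± 0.53 (SE; edgeR adjusted p = 3.29e-04). It was called in each line, at 2.87 in LoVo, 2.80 in LS1034, 2.67 in HT-29 and 2.70 in HCT116, with no difference detected among the lines (adjusted p = 0.985). All of the 50-base stretches in its annotated transcript are absent from other annotated genes.

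H4C8 and H4C11, which encode H4 as well, went the other way. H4C8 averaged 0.501 CPM in the cancer lines and 6.26 ± 0.404 in CCD841CoN (log2 fold change -4.46 ± 0.62, edgeR adjusted p = 1.24e-05), with at most 1.57 CPM in a cancer library and at least 5.88 in CCD841CoN. H4C11 fell by 1.86 ± 0.50 on the log2 scale (adjusted p = 0.00439), from low counts and with 18.8% of its 50-base stretches unique to it. Within 1 class, then, the most abundant gene rose while the other members fell.

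Among the H2A genes, H2AC6 had 15.8, 10.5 and 21.1 CPM in LoVo, 47.6, 17.4 and 57.3 in LS1034, 45.04, 24.6 and 14.2 in HT-29 and 8.20, 4.17 and 4.39 in HCT116, against 136, 103 and 101 in CCD841CoN. No cancer library reached the CCD841CoN range. Its mean was 5.02-fold lower in the cancer lines, with a log2 fold change of -2.95 ± 0.33 (edgeR adjusted p = 9.90e-07). H2AC20 was the counterpart: 2.91 to 10.3 CPM in the cancer lines and 1.14 to 1.95 in CCD841CoN, with no overlap and a log2 fold change of 1.79 ± 0.44 (adjusted p = 0.00231). H2AC13 rose by 2.12 ± 0.69 (adjusted p = 0.0150), although only 37.7% of its 50-base stretches are its own, and H2AC11 stood at -0.09 ± 0.35 (adjusted p = 0.847).

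Among the H3 genes, H3C12 had 1.28, 5.23 and 0.797 CPM in LoVo, 1.90, 7.12 and 0.448 in LS1034, 2.33, 2.53 and 0.185 in HT-29 and 4.36, 9.90 and 1.43 in HCT116, against 0.122, 0.0857 and 0.103 in CCD841CoN, where it had 5 counts in all. Every cancer library lay above those of CCD841CoN, and the log2 fold change was 4.37 ± 1.16 (edgeR adjusted p = 0.00416). H3C4, the other H3 gene tested, stood at 0.61 ± 0.46 (adjusted p = 0.269), and none of its 50-base stretches is its own.

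The H2B genes that changed all fell. H2BC12, the most abundant, had 13.04, 20.3 and 9.73 CPM in LoVo, 28.4, 50.8 and 27.7 in LS1034, 34.5, 30.2 and 22.04 in HT-29 and 18.5, 14.8 and 14.8 in HCT116, against 58.0, 68.0 and 69.2 in CCD841CoN; its log2 fold change was -1.86 ± 0.21 (edgeR adjusted p = 1.56e-06). It is a less certain value than the others, since 25.9% of its 50-base stretches are found in no other gene. H2BC21 had 2.53 to 3.51 CPM in LoVo, 5.83 to 12.2 in LS1034, 3.33 to 11.6 in HT-29 and 0.278 to 1.36 in HCT116, against 14.8 to 21.1 in CCD841CoN (log2 fold change -2.66 ± 0.36, adjusted p = 7.74e-06). H2BC4 had 0 to 1.09 CPM in LoVo, 1.43 to 2.99 in LS1034, 2.78 to 3.37 in HT-29 and 1.21 to 1.85 in HCT116, against 11.7 to 15.02 in CCD841CoN (log2 fold change -3.41 ± 0.44, adjusted p = 5.07e-06). The ranges of the cancer lines and of CCD841CoN did not overlap for any of these genes. H2BC5 fell by 1.62 ± 0.37 (adjusted p = 0.00134) and its ranges did overlap. H2BC11, H2BC15 and H2BC18 passed in neither direction.

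Of the 6 members listed as known sources of polyadenylated transcripts (H2AC6, H2BC4, H2BC5, H2BC12, H2BC21 and H1-2), 5 fell and 0 rose. Their median log2 fold change was -2.26 (all genes: 22.3% lower, 24.8% higher, median 0.22). The exception, H1-2, stood at 0.30 ± 0.54 (edgeR adjusted p = 0.659). Their summed level was 32.6 to 144 CPM in the cancer lines and 228 to 254 CPM in CCD841CoN. Whether the reads came from the polyadenylated or the stem-loop form was not measured here.

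The linker histones were uneven. H1-4 had 19.2, 79.7 and 12.4 CPM in LoVo, 23.7, 82.3 and 4.85 in LS1034, 10.2, 63.9 and 5.28 in HT-29 and 37.1, 115 and 9.58 in HCT116, against 0.649, 5.14 and 3.92 in CCD841CoN. Its ranges overlapped, through replicate 3 of LS1034. The log2 fold change was 3.24 ± 1.07 (edgeR adjusted p = 0.0157) and the call was lost without CCD841CoN replicate 1 (2.71, adjusted p = 0.0715; range over single libraries left out 2.71 to 3.80). H1-2 averaged 34.7 ± 24.1 CPM in the cancer lines and 22.4 ± 2.42 in CCD841CoN (SD, n = 12 and n = 3). Its cancer libraries, at 10.1 to 78.6 CPM, lay on both sides of those of CCD841CoN, and it was not called in any line.

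H1-1, a linker histone gene of the chromosome 6 cluster, was close to absent from the cancer lines. Its counts were 3 in LoVo, 0 in LS1034, 0 in HT-29 and 6 in HCT116 over 3 libraries each, against 153 in CCD841CoN, where it had 3.003, 3.60 and 3.82 CPM. Against a floor of 3 counts over the group, its level was at least 83.0-fold lower in LS1034 and at least 74.7-fold lower in HT-29 than in CCD841CoN. In LoVo it was 43.6-fold lower, with a counting interval of 14.9 to 211 (exact Poisson, 95%, counting error only).

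H1-10, a replication-independent linker histone, had 54.6 to 173 CPM in the cancer lines and 36.5 to 45.2 in CCD841CoN, with no overlap, and its log2 fold change of 0.98 ± 0.33 (edgeR adjusted p = 0.0175) lay just inside the fold limit. When counts were scaled by library size alone that value was 1.26 and was called; under that scaling the median of all genes was 0.51 in place of 0.22.

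**Figure D2:**
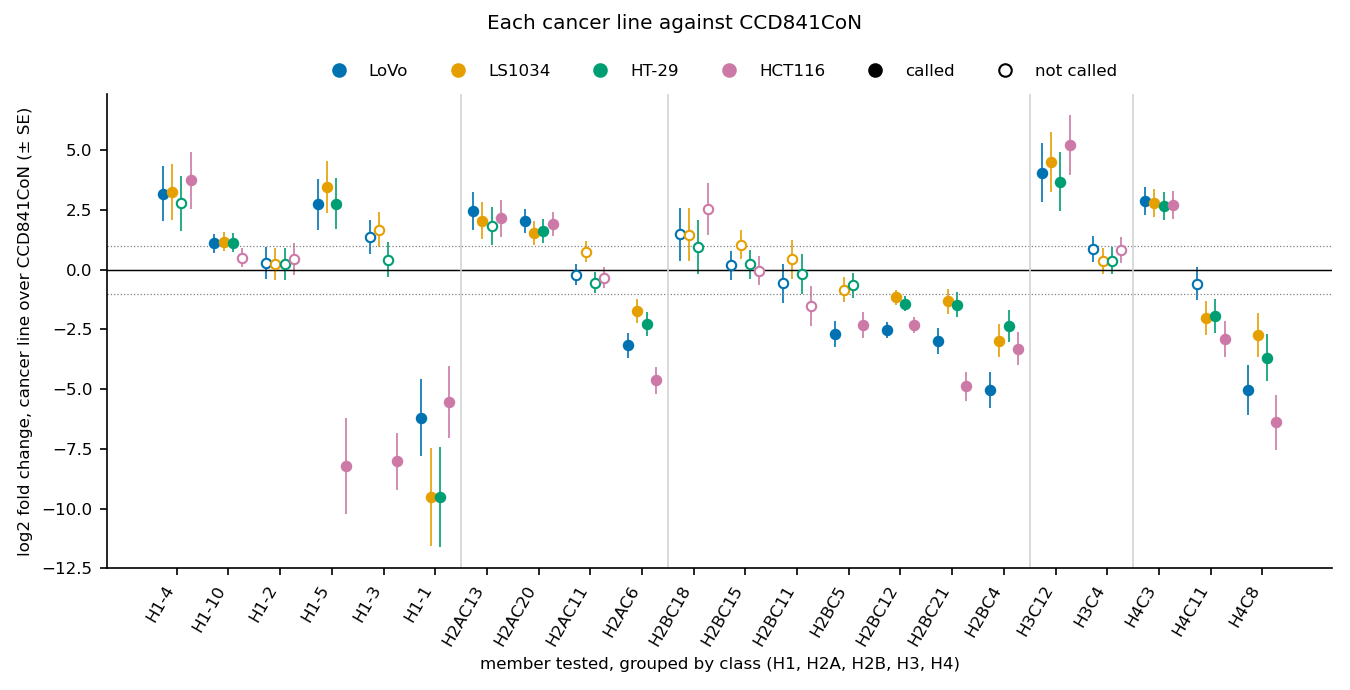
Log2 fold change of 22 tested members in each cancer line over CCD841CoN, with its standard error, grouped by class. Filled points were called and open points were not. H4C3 stood at 2.67 to 2.87 in all 4 lines, H2AC6 at -4.63 to -1.73, and H1-5 was positive in LoVo, LS1034 and HT-29 and at -8.22 in HCT116; values of H1-1, H1-3 and H1-5 against lines with 0 to 6 counts depend on the model's prior count.

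Line by line, 8 members rose and 7 fell in LoVo, where 48.0% of all genes were called, 26.4% higher and 21.6% lower. In LS1034 8 rose and 7 fell (47.1% of all genes, 25.7% higher and 21.4% lower), in HT-29 5 rose and 7 fell (45.7%, 24.7% higher and 20.9% lower) and in HCT116 6 rose and 10 fell (46.7%, 25.4% higher and 21.2% lower). The 4 comparisons share the CCD841CoN libraries. H4C3, H2AC20 and H3C12 rose in all 4 lines, and H2AC6, H2BC4, H2BC12, H2BC21, H4C8 and H1-1 fell in all 4. The single member called in opposite directions was H1-5, at 2.74 ± 1.07 in LoVo (edgeR adjusted p = 0.0427), 3.45 ± 1.09 in LS1034 (0.0162), 2.77 ± 1.07 in HT-29 (0.0427) and -8.22 ± 2.02 in HCT116 (0.00345).

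Several of these calls rest on single libraries. The positive calls of H1-5 were lost without replicate 2 of the line (adjusted p = 0.206 in LoVo, 0.245 in LS1034 and 0.245 in HT-29) and also without CCD841CoN replicate 1 (0.107, 0.0535 and 0.106) or replicate 3 (0.128, 0.0618 and 0.128). In LoVo and HT-29 they were lost without CCD841CoN replicate 2 as well (0.0562 and 0.0572), and with DESeq2's size factors (0.0538 and 0.0553). Those of H1-4 were lost without replicate 2 of the line (0.180 in LoVo, 0.204 in LS1034 and 0.0888 in HCT116) and without CCD841CoN replicate 1 (0.103, 0.0972 and 0.0577), and in LoVo and LS1034 without CCD841CoN replicate 3 (0.0652 and 0.0627). H2BC21 in LS1034 was lost without any 1 CCD841CoN library (0.0501 to 0.0979) and without LS1034 replicate 1 (0.0814) or 2 (0.113), and in HT-29 without its replicate 3 (0.0951) or CCD841CoN replicate 2 (0.0711) or 3 (0.0693). With library size alone H2BC21 was lost in both lines (0.0909 in LS1034 and 0.0640 in HT-29). H2BC12 in LS1034 then fell under the fold limit, at -0.87 (edgeR adjusted p = 0.0311). H1-10 was lost without replicate 3 of the line (0.197 in LoVo, 0.121 in LS1034 and 0.0657 in HT-29) and without CCD841CoN replicate 1 (0.0851, 0.0682 and 0.0766). In LoVo and HT-29 it was lost also without CCD841CoN replicate 2 (0.0591 and 0.0542) or 3 (0.0567 and 0.0515), and its log2 fold change was below 1 with DESeq2 (0.95 and 0.99). The members that rose in LoVo numbered 4 without its replicate 2 and 4 to 5 without CCD841CoN replicate 3 or 1, and in LS1034 they numbered 4 without its replicate 2 or CCD841CoN replicate 1 or 3. In HT-29 they numbered 2 without its replicate 2 or CCD841CoN replicate 1 or 2, and 1 without CCD841CoN replicate 3. Those that fell in LS1034 numbered 4 without its replicate 1 or CCD841CoN replicate 1. Scaling moved the HT-29 count as well, to 3 members that rose with DESeq2's size factors and to 8 with library size alone.

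HCT116 had almost no reads of H1-3 and H1-5, which encode linker histones. H1-3 had 0, 1 and 1 counts in the 3 HCT116 libraries, against 15.1, 49.2 and 6.14 CPM in LoVo, 18.9, 59.1 and 5.15 in LS1034, 9.61, 18.3 and 5.65 in HT-29 and 6.90, 7.46 and 6.50 in CCD841CoN. H1-5 had no count in HCT116, which allows a mean of up to 0.0399 CPM (3 counts over its 3 libraries, counting error only), against 1.12 to 48.5 CPM in the 9 libraries of the other cancer lines and 0.516 to 2.31 in CCD841CoN. No HCT116 library overlapped any library of another line for either gene. The mean of H1-3 was 220.1-fold lower in HCT116 than in CCD841CoN (exact Poisson 95% interval 60.9 to 1817) and 658-fold lower than in the other 3 cancer lines (182 to 5434). H1-5 was at least 34.9-fold lower than in CCD841CoN and at least 361-fold lower than in the other 3 lines, against the floor of 3 counts over the group. In edgeR's quasi-likelihood test of HCT116 against the other 3 lines, both were called lower, H1-3 with adjusted p = 1.45e-05 and H1-5 with 2.97e-04.

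H1-2 and H1-4, which are linker histone genes as well, were present in HCT116, at 10.1 to 78.6 and 9.58 to 115 CPM. H1-1, with 6 counts in all in HCT116, and H1-6, with 0, 0 and 4, had few counts there and in the other cancer lines. Levels of the counted genes next to H1-3 and H1-5 were looked up as well. Beside H1-5, H3C12 averaged 5.23 CPM in HCT116 and 1.68 to 3.16 in the other cancer lines, and H2BC15 on its other side averaged 1.61 CPM in HCT116 and 1.84 to 3.33 in the other cancer lines. Beside H1-3, both nearest counted genes were low in HCT116. H4C8 averaged 0.0925 CPM there, with 6 counts in all, against 0.219 to 1.13 in the other cancer lines (adjusted p = 0.0518 by edgeR against the other 3). H2AC7, on the other side, averaged 0.0154 CPM in HCT116 and 0 to 0.0668 in the other cancer lines, so it was near the floor throughout. H3C4, on the far side of H2AC7, averaged 2.75 CPM in HCT116 and 1.93 to 2.92 in the other cancer lines. The neighbours were chosen by their order in RefSeq, after the values of H1-3 and H1-5 were seen.

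**Figure D3:**
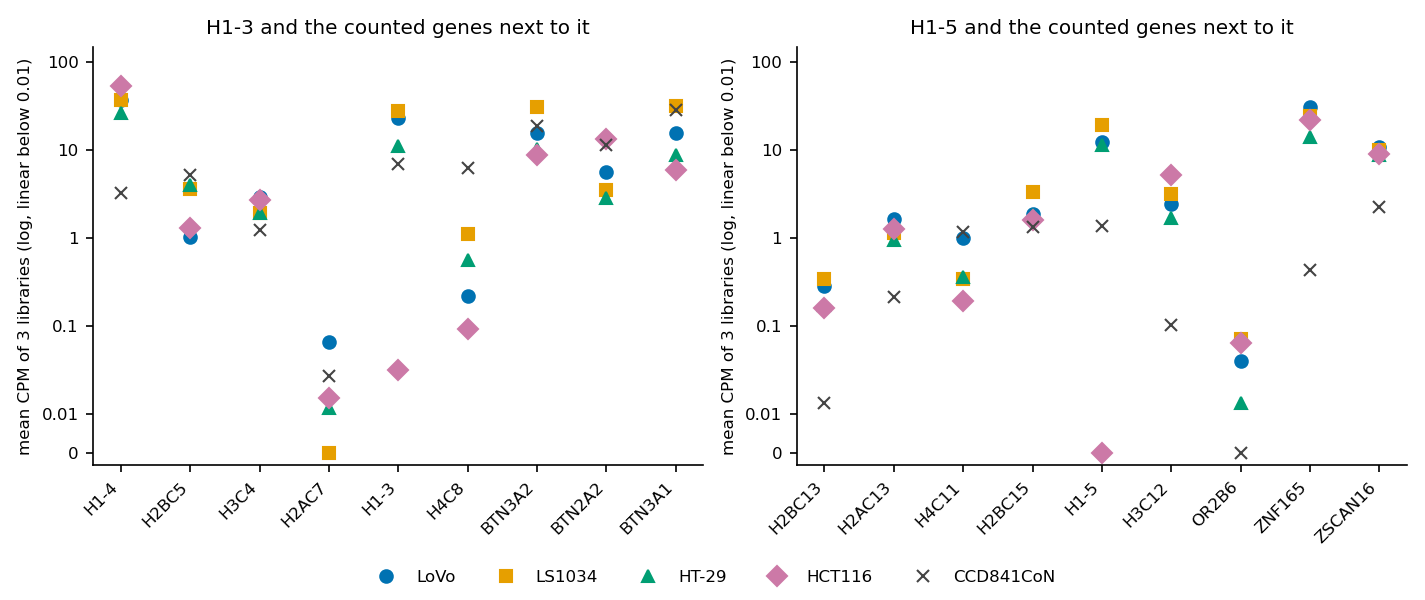
Mean level of H1-3 (left) and H1-5 (right) and of the 4 counted genes on each side, in gene order, in the 5 lines. The y axis is the mean CPM of 3 libraries, logarithmic above 0.01 and linear below. HCT116 stands at 0.0316 CPM for H1-3 and at 0 for H1-5, while its means for H3C12 (5.23 CPM) and H1-4 (53.9 CPM) are above those of the other lines.

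H2BC21 and H2AC6 were lowest in HCT116 as well. H2BC21 averaged 0.798 ± 0.542 CPM in HCT116, against 3.01 ± 0.487 in LoVo, 8.98 ± 3.21 in LS1034 and 8.16 ± 4.30 in HT-29 (log2 fold change to the other 3 lines -2.96 ± 0.52, edgeR adjusted p = 3.09e-04). H2AC6 averaged 5.59 ± 2.27 CPM in HCT116, against 15.8 ± 5.31 in LoVo, 40.8 ± 20.8 in LS1034 and 27.9 ± 15.7 in HT-29 (-2.24 ± 0.45, adjusted p = 0.00105). With H1-3 and H1-5 these made 4 members lower and 0 higher in HCT116 against the other 3 cancer lines (27.0% of all genes called, 14.6% higher and 12.4% lower). Against the other 3, LoVo had 3 higher and 2 lower (21.5% of all genes, 12.9% higher and 8.60% lower), LS1034 had 6 higher and 0 lower (24.7%, 13.8% higher and 10.9% lower) and HT-29 had 5 higher and 0 lower (23.1%, 13.1% higher and 9.99% lower). H1-3 and H1-5 were among the higher ones in all of these, since the average of the other 3 lines then included HCT116. The 2 calls lower in LoVo, H2BC4 and H2BC5, fell to 0 without LoVo replicate 1 and to 1 without LoVo replicate 3, LS1034 replicate 1 or HT-29 replicate 1. The higher calls in HT-29 numbered 2 without its replicate 1 and 0 without its replicate 2, and those in LoVo numbered 1 without its replicate 2. In 1 F test over the 4 cancer lines, 9 of 23 members differed (39.1%, against 57.4% of all genes): H2BC4, H2BC5, H2BC12, H2BC21, H2AC6, H4C8, H4C11, H1-3 and H1-5.

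The replicates of the cancer lines differed in a way that tracked their number. Summed over H1-2, H1-3, H1-4 and H1-5, replicate 2 had 215 CPM in LoVo, 255 in LS1034, 164 in HT-29 and 194 in HCT116. Replicate 1 had 63.1, 71.7, 48.0 and 66.5 CPM in the same lines, and replicate 3 had 45.9, 23.5, 30.1 and 19.8. Replicate 2 was thus highest in every cancer line, while CCD841CoN had 33.9, 36.8 and 31.2 CPM in its 3 libraries. H1-2, H1-3, H1-4, H3C12, H2AC20 and H2BC18 each were highest in replicate 2 in all 4 cancer lines, which is 27.3% of the 22 members with at least 120 counts over these libraries, against 8.07% of 13317 genes. For H1-3 the order in HCT116 rests on 0, 1 and 1 counts, so there replicates 2 and 3 differ through the library total alone, and H2BC18 had at most 29 counts in any of the 12 libraries. H4C3 and H1-10 were highest in replicate 3 in all 4.

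After this was seen, replicate number was tested across the 12 cancer line libraries with line as a block. It was called for 7 of 22 members (31.8%), against 20.7% of all genes tested: H1-2, H1-3, H1-4, H1-5, H1-10, H3C12 and H4C3. The log2 difference of replicate 2 over replicate 3 was 3.37 for H1-4 (edgeR adjusted p = 0.00104 for any difference by number), 2.15 for H1-2 (0.00141), 2.59 for H1-3 (0.00523), 2.71 for H1-5 (0.0182), 3.09 for H3C12 (0.00832) and -0.85 for H4C3 (0.0145). H2AC6, H2BC4, H2BC12 and H2BC21 were not called. Without LoVo 2 members were called, without LS1034 3 and without HCT116 3, so the count rests on having the lines together. The comparisons of the cancer lines' mean with CCD841CoN took the 12 libraries as independent. For members that moved with the number, such as H4C3, H1-4 and H3C12, their standard errors and p-values may be too small.

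Other values moved with the replicate number. The summed level of 20 S phase genes was highest in replicate 2 in LoVo (4875 CPM, against 1656 in replicate 1 and 2279.7 in replicate 3), in LS1034 (4155, against 2739 and 2350.4) and in HCT116 (6794, against 5265 and 6497), but in HT-29 it was highest in replicate 3 (5039, against 2711 and 3475). Total counts were 28732096 to 37418506 in the replicates 1 and 10800329 to 21616437 in the replicates 3 of the cancer lines. The part of either in the histone levels was not tested. The labels say nothing of what a replicate number stands for.

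**Figure D4:**
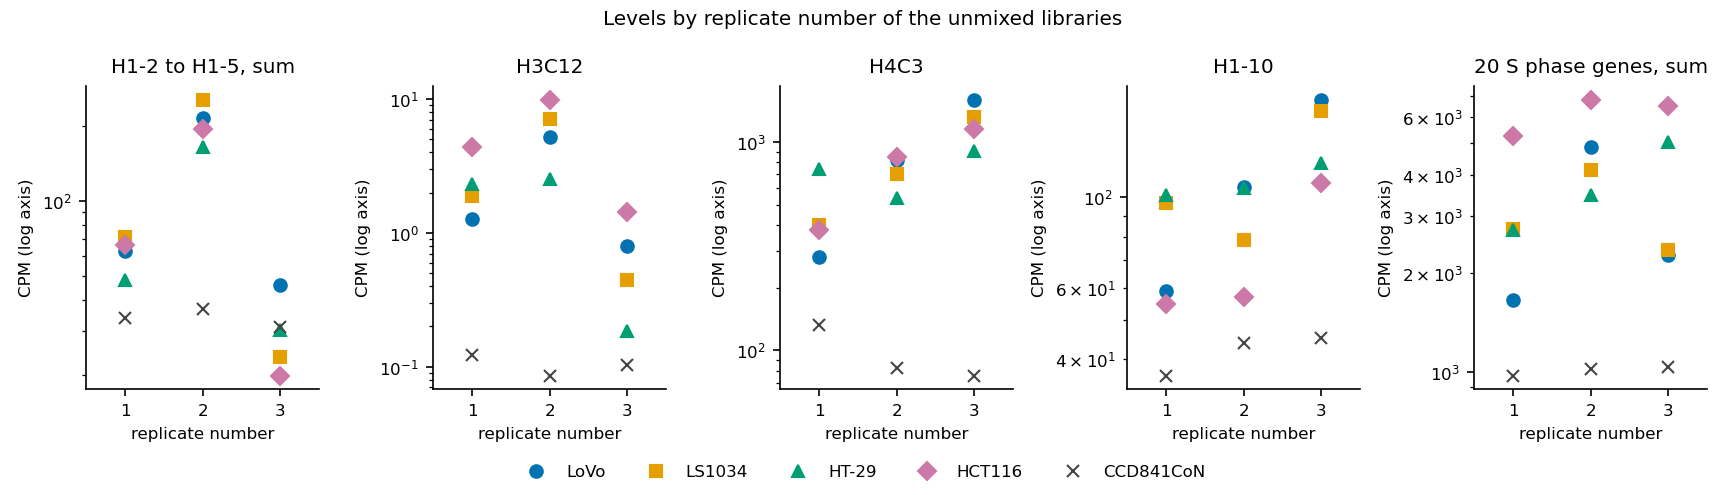
Level in each unmixed library by replicate number, on log axes in CPM: the sum of H1-2, H1-3, H1-4 and H1-5, then H3C12, H4C3, H1-10 and the sum of 20 S phase genes. Symbols mark the line. In the cancer lines the linker histone sum was 164 to 255 CPM in replicate 2 and 19.8 to 45.9 CPM in replicate 3, and CCD841CoN stayed at 31.2 to 36.8 CPM.

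In the mixtures, H4C3 and H1-10 climbed with the share of cancer RNA, while H2AC6 and 4 of the 6 H2B genes tested declined. Between 50% and 0.1% cancer RNA, 5 members rose (among them H4C3, H1-10, H1-4 and H2AC20) and 8 fell (H2AC6, H2BC4, H2BC5, H2BC12, H2BC21, H4C8, H1-1 and H1-2), which is 61.9% of the 21 tested, against 54.2% of all 13212 genes, 30.1% higher and 24.1% lower. Here a call needed only an adjusted p under 0.05 in edgeR with line as a block. All 6 genes of the polyadenylated list were among those that fell. For H1-2 this had no counterpart in the unmixed libraries, where it averaged 34.7 CPM in the cancer lines and 22.4 in CCD841CoN and was not called. Each line has 1 mixture per percentage, so the test is about the average over lines.

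H4C3 had 124, 139.7, 109.9 and 130.5 CPM at 0.1% of LoVo, LS1034, HT-29 and HCT116 RNA, 142, 149, 143 and 145 CPM at 1%, 272, 293, 255 and 244 CPM at 10%, and 748, 769, 617 and 653 CPM at 50%. The 4 percentages did not overlap. It rose by 2.35 ± 0.07 on the log2 scale between 0.1% and 50% (edgeR adjusted p = 3.21e-11) and by 1.03 ± 0.07 between 0.1% and 10% (1.84e-07). In the comparison of 10% with 0.1%, 3 members were called, all higher (7.39% of all genes called, 6.21% higher and 1.18% lower), among them H4C3 and H1-10 (0.51 ± 0.10, adjusted p = 0.00740). H4C3 was the 1 call left without the LoVo mixtures. H1-10 was lost also without the HT-29 mixtures (adjusted p = 0.0940).

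H2AC6 had 80.3, 92.8, 55.0 and 57.2 CPM at 50% of LoVo, LS1034, HT-29 and HCT116 RNA, against 115, 121, 110.1 and 124 CPM at 0.1% (log2 fold change -0.87 ± 0.10, edgeR adjusted p = 1.01e-05). H2BC12 had 36.1, 38.3, 32.9 and 33.1 CPM at 50%, against 55.5, 56.8, 62.1 and 58.0 CPM at 0.1% (-0.84 ± 0.10, adjusted p = 1.38e-05). Neither overlapped between these percentages. H1-4 had 7.95, 3.16, 5.41 and 7.06 CPM at 50%, against 1.36, 1.30, 0.963 and 1.30 CPM at 0.1% (2.12 ± 0.40, adjusted p = 5.55e-04). H1-3 at 50% had 7.85 CPM with LoVo, 6.52 with LS1034, 7.09 with HT-29 and 3.25 with HCT116, the line without it.

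The mixtures were set beside the level expected from the unmixed means, weighted by the stated percentages. At 50% H4C3 was at 1.47 to 1.70 times that level, H1-10 at 1.16 to 1.46 times and H2AC6 at 0.780 to 1.24 times. H1-4 was at 0.157 to 0.394 times and the sum of H1-2, H1-3, H1-4 and H1-5 at 0.346 to 0.630 times. With 0.1% cancer RNA, H4C3 was already at 1.13 to 1.43 times and H1-4 at 0.295 to 0.416 times. The sum of H1-2, H1-3, H1-4 and H1-5 was then at 0.836 to 1.04 times. At 0.1% almost all RNA was that of CCD841CoN, whose own libraries spread from 75.6 to 133 CPM for H4C3 and from 0.649 to 5.14 CPM for H1-4. Because unmixed replicates spread so far, the expectation was also formed from each pair of single libraries. Of the 44 values of the 11 abundant members at 50%, 28 lay within the range of these pairs, 7 above and 9 below. H4C3 was above the range in 3 of 4 lines (769 CPM with LS1034, against 238 to 726), and H1-4 was within it in all 4, near the low end (3.16 CPM with LS1034, against 2.75 to 43.7). At 0.1%, 25 of the 44 values lay within the range, 3 above and 16 below. There H1-4 was within it in all 4 lines, and H4C3 was above it with LS1034 only (139.7 CPM, against 75.9 to 134). The expectation makes no allowance for lines that hold different amounts of coding RNA per amount of RNA, and which culture's RNA went into the mixtures is not given in the sources used here.

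**Figure D5:**
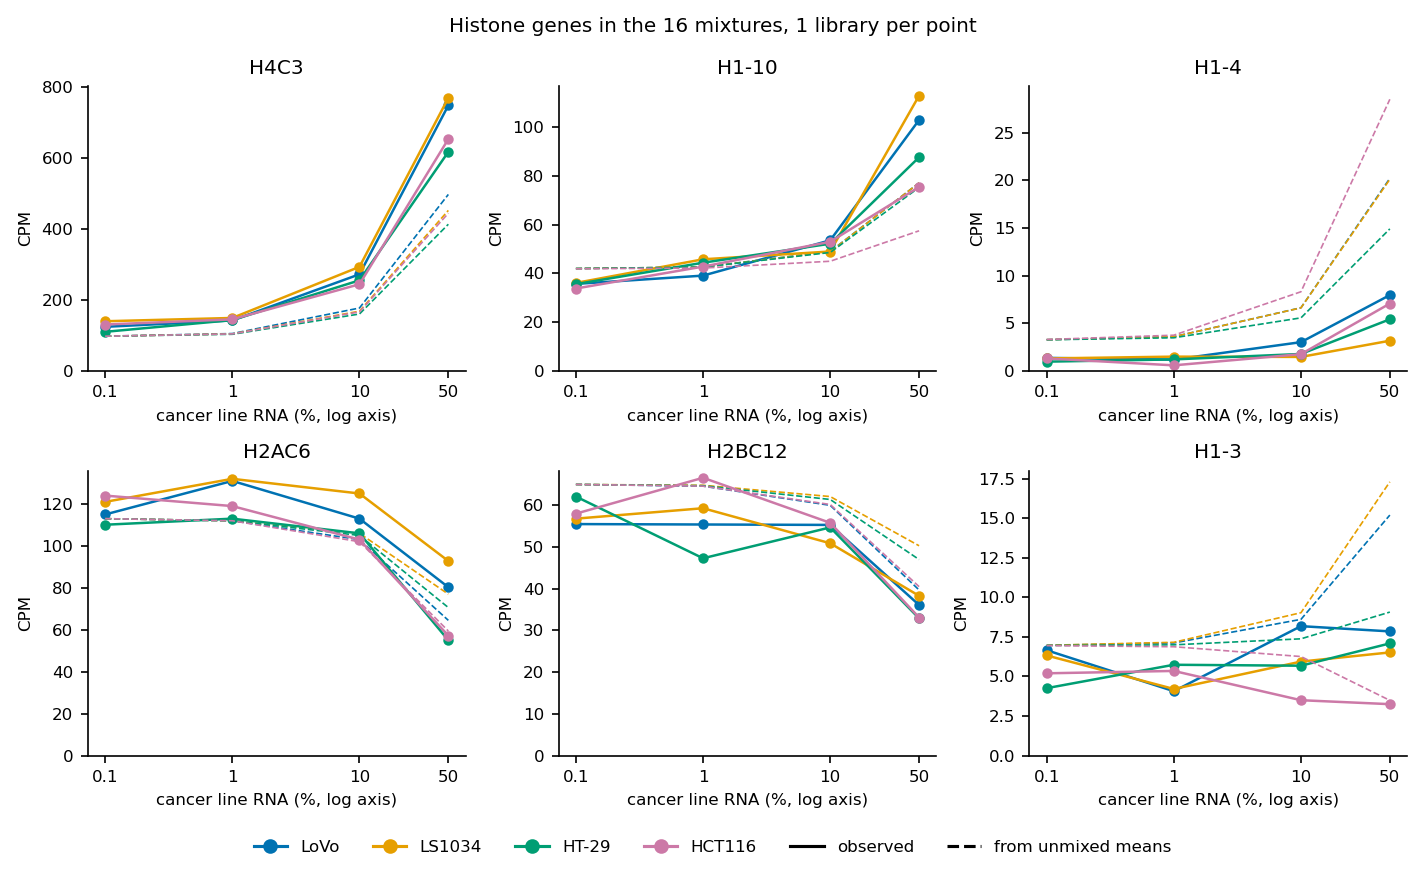
Level of 6 members in the 16 mixtures against the percentage of cancer line RNA (log axis), 1 library per point, in CPM from 0. Solid lines join the measured values and dashed lines the level expected from the unmixed means. H4C3 at 50% (617 to 769 CPM) is above its dashed lines and H1-4 (3.16 to 7.95 CPM) is below.

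Genes that act on histone RNA or protein were taken from lists. Of 19 genes for histone gene transcription and RNA end processing, 8 rose and 0 fell in the mean of the cancer lines over CCD841CoN, with a median log2 fold change of 0.63, and of 18 histone chaperone and import genes 8 rose and 0 fell, with a median of 0.92 (all genes: 24.8% higher, median 0.22). NPAT, the coactivator of histone genes in S phase, had 50.5 ± 15.03 CPM in the cancer lines and 18.9 ± 1.47 in CCD841CoN (log2 fold change 1.11 ± 0.30, edgeR adjusted p = 0.00460). SLBP had 224 ± 86.0 CPM in the cancer lines and 117 ± 7.48 in CCD841CoN; at 0.59 ± 0.22 it was under the fold limit (adjusted p = 0.0290). ASF1B, a chaperone that hands H3 and H4 to new DNA, had 120.01 ± 52.9 CPM in the cancer lines and 18.5 ± 1.86 in CCD841CoN (2.36 ± 0.41, adjusted p = 1.33e-04). Of 12 replication-independent histone variants, H1-10 included, 6 rose and 2 fell (all genes: 24.8% higher and 22.3% lower). Those that fell were MACROH2A2 and H3-5, named after their values were seen.

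Of the 20 S phase genes 16 rose and 0 fell, with a median log2 fold change of 1.48 (all genes: 24.8% higher, 22.3% lower, median 0.22). The proliferation marker MKI67 had 214 ± 80.3 CPM in the cancer lines and 13.9 ± 8.83 in CCD841CoN (3.59 ± 0.44, edgeR adjusted p = 2.95e-06), and MCM2, a subunit of the replicative helicase, had 264 ± 133 CPM in the cancer lines and 35.2 ± 8.62 in CCD841CoN (2.52 ± 0.40, adjusted p = 4.65e-05). The part of this difference in the histone levels was not tested.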

How the data were processed

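RNA of 5 human lines and of 16 mixtures was sequenced after removal of ribosomal RNA, with a stranded kit per the labels' protocols. The authors aligned with STAR and counted with featureCounts on hg19, per the submitters' processing notes; versions, annotation and the handling of multiply mapped reads are not given in the sources used here. The deposited values are whole-number counts per coding gene, 17113 genes in 31 libraries, with totals of 9688765 to 56741879. The depth sets the precision of low genes; intervals and floors (3 counts over a group) cover counting error only.

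CPM were computed on library totals. Tests used edgeR 4.0.16 in R 4.3.3 (TMM scaling, filterByExpr, quasi-likelihood test, Benjamini-Hochberg adjustment over all tested genes). The 15 unmixed libraries were fitted together, called at an adjusted p under 0.05 with a log2 fold change of 1 or more in either direction. The 16 mixtures were fitted with percentage and line, and called on adjusted p alone, as was the test of replicate number in the 12 cancer line libraries, which was added after the data were seen. The scripts were tested on simulated data. Alternatives were DESeq2 1.42.0, its size factors or library size alone in edgeR, no filter on low counts, a replicate block, only the compared groups, and leaving out each replicate or line. Deviations of same-numbered libraries from their line means correlated between cancer lines in 18 of 18 pairs (0.143 to 0.468) and not with CCD841CoN (-0.0344 to 0.0227). The numbers thus pair the cancer lines only. The main fit held no replicate term and took these libraries as independent. Averaging over lines does not remove a deviation that they share. Standard errors and p-values for the mean of the cancer lines may thus be too small for members that moved with the replicate number.

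Members with a mean of at least 10 CPM in a line were named with values, along with SLBP, NPAT and the 3 called genes of the other lists with the largest change at 10 CPM or more; further members were named by class. The values of 1 member are not reported here; it is included in the counts of members. Members and lists were chosen with earlier results of these data known. Pairwise counts of replicates differed by more than sampling noise, with chi-square per degree of freedom of 5.13 to 322, so none was merged. RefSeq and GENCODE 29 sequences are on GRCh38 and were used for sequence and gene order, not for coordinates of the counts.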

Additional observations from a re-analysis of the deposited data

Results flagged for a closer look

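The effect of the cancer lines over CCD841CoN differed among the 4 lines for 6 of the 11 abundant members. This was by edgeR's quasi-likelihood F test with adjustment over all genes. By the same test 57.4% of all genes differed, so the count does not set these members apart. H1-3 had an adjusted p of 4.60e-05 and H1-5 of 0.00110, with HCT116 at 2 and 0 counts in all. H2BC21 had an adjusted p of 2.73e-04 and H2AC6 of 9.91e-04, both lowest in HCT116. H2BC12 had an adjusted p of 0.00229, with mean levels of 14.4 CPM in LoVo, 35.6 in LS1034, 28.9 in HT-29 and 16.02 in HCT116, and H2BC4 had 0.0247, with LoVo lowest at a mean of 0.478 CPM.

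In the mixtures with 0.1% cancer RNA, H1-4 in the HT-29 mixture (0.963 CPM, 21 counts) stood apart from the other 3 (1.30 to 1.36 CPM) by the gap to its nearest neighbour relative to the range. Chance flags about 1 in 20 groups in this way.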

How the results depend on the processing

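Of 1320 gene values under the alternatives 1208 kept their direction and side of the threshold, 62 lost and 24 gained a call and 26 turned; of 533 counts and class sums 501 held and 32 moved. No called value turned; the cause of any change was not tested beyond what the setting itself alters. H1-3 between 50% and 0.1% mixtures turned from -0.01 to 0.02 with DESeq2, 0.02 with its size factors and 0.10 with library size alone, where the 10% values of H1-2 and H1-3 became 0.03 and 0.02. The replicate block gives CCD841CoN the same replicate terms as the cancer lines, although its libraries did not deviate with those of the same number. Values against CCD841CoN under it thus rest on a pairing that the libraries did not show. Under the replicate block H1-2 turned to -0.09 in the mean of the cancer lines, -0.20 in LS1034, -0.15 in HT-29 and -0.01 in HCT116. H1-5 turned to -0.08 in the mean, while H1-3 in the mean was called at -1.56 (edgeR adjusted p = 0.00464). That mean includes HCT116, with 2 counts of H1-3 in all. In LoVo, LS1034 and HT-29 the mean CPM of H1-3 was 3.38, 3.99 and 1.61 times that of CCD841CoN. With the block, in all 15 or only the 12 cancer libraries, 1 member was higher in HCT116 than in the other 3 lines in place of 0; it changed no other count of calls by over 1.5 times. Members higher in HT-29 over CCD841CoN numbered 3 with DESeq2's size factors and 8 with library size alone, and those lower in LoVo than in the other 3 lines 0 with only the compared groups. Over H1-1 to H1-6 alone the H1 sum was 99.8 CPM in the cancer lines and 37.4 in CCD841CoN; on TMM library sizes CCD841CoN had 171 CPM of H1 and 118 of H2B. Leaving out 1 library or line gave values from -0.38 to 0.68 for H1-5 in the mean of the lines, -0.41 to 0.53, -0.77 to 0.61, -0.63 to 0.57 and -0.53 to 0.91 for H1-2 in LoVo, LS1034, HT-29 and HCT116, -0.19 to 0.72 for H1-3 in HT-29, -0.23 to 0.20 for H1-3 in the 50% mixtures, and at 10% -0.08 to 0.03 for H1-2, -0.08 to 0.15 for H2BC4 and -0.14 to 0.15 for H1-3. Counts of members called over CCD841CoN then ran from 4 to 8 for higher in LoVo, 4 to 8 for higher and 4 to 8 for lower in LS1034 and 1 to 7 for higher in HT-29. Against the other 3 lines they ran from 1 to 3 for higher and 0 to 3 for lower in LoVo and from 0 to 6 for higher in HT-29. They were 1 to 2 for higher at 10% against 0.1%, and 2 to 9 for the replicate number. Low members rest on few counts: 9 of 32 could not be tested in the unmixed libraries.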

Other observations

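The 9 members with too few counts for a test were H3C13, H3C14, H3C15, H2AC1, H2AC7, H2AC18, H2AC21, H2BC13 and H1-6. H2AC18 had 0 to 0.104 CPM in the cancer line libraries and 0.162 to 0.600 CPM in CCD841CoN, with no overlap. H2BC13 had 0 to 0.791 CPM in the cancer lines and 0 to 0.0406 CPM in CCD841CoN. H3C14 and H3C15 have the same annotated transcript length of 1656 bases and no 50-base stretch of their own, so their counts cannot be told apart. H1-6, a linker histone gene known from testis, had at most 0.185 CPM in any unmixed library.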
